A study of Mus musculus with 8 samples.

Results

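Transcripts of 10 receptor subunits for interleukins and interferon gamma were followed in mouse monocytes and their precursors after contact with a Notch ligand. The genes were taken by name from a list of receptor chains (Il21r, Il10ra, Il10rb, Il6ra, Il4ra, Il17ra, Il13ra1, Il2rg, Ifngr1 and Ifngr2), and all 10 were among the 13388 genes of the deposited table. The cells were common monocyte progenitors (cMoPs), dividing bone marrow cells that give rise to monocytes, and Ly6C+ classical monocytes, both sorted from wild-type mouse bone marrow. Each kind was kept for 6 h on OP9-DLL1 cells, a bone marrow stromal line that displays the Notch ligand DLL1, or on OP9 cells, the parental line without it. This gave 4 groups of 2 libraries: cMoPs on OP9-DLL1, cMoPs on OP9, monocytes on OP9-DLL1 and monocytes on OP9. The age of the mice, whether animals were pooled and how cells were gated and separated from the stroma are not stated in the labels. Nothing in the labels ties the replicates to separate mice or cultures, and the p-values therefore reflect only how far these libraries lie apart, which may be technical.

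Cytokine receptors of this kind are built from a chain that gives ligand specificity and a partner that is often shared between receptors. The common gamma chain, encoded by Il2rg, pairs with the IL-21 receptor and with IL-4R alpha, and IL-4R alpha also pairs with IL-13R alpha 1. The IL-10 and interferon gamma receptors each combine a ligand-binding chain (Il10ra, Ifngr1) with a second chain (Il10rb, Ifngr2), IL-6R alpha signals through gp130, and IL-17RA works with other IL-17 receptor chains through the adaptor Act1. All but IL-17RA signal through JAK kinases and STAT factors, and in monocytes and macrophages these receptors set inflammatory and alternative activation programmes.

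Levels are given in CPM, reads relative to the size of each library, which are the deposited log2 values turned back to a linear scale and carry the 0.5 reads added before the logarithm. Recovered depth was 47316323 to 62459962 reads per library, so that 1 read stood for 0.0151 to 0.0231 CPM, and the lowest value of any of the 10 genes was 3.44 CPM. Listed progenitor markers (10 of 11 measured) summed to 15400 to 22800 CPM in cMoPs and 401 to 922 CPM in monocytes, and 13 of 13 monocyte markers to 7110 to 8750 CPM in cMoPs and 28800 to 46100 CPM in monocytes. Stromal markers (7 of 15 measured) summed to 2.91 and 1.09 CPM in cMoPs on OP9-DLL1 and 0.673 and 1.87 CPM in cMoPs on OP9. The sums in monocytes were 4.88 and 20.9 CPM on OP9-DLL1 and 28.2 and 28.9 CPM on OP9. Col1a2, Cxcl12 and Fbln2 had 0 reads in replicate 2 of cMoPs on OP9-DLL1. Whether carried-over stroma plays a part in the receptor values was not tested.

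Il21r was the member that responded most to OP9-DLL1, and it did so in monocytes. It encodes the ligand-binding chain of the IL-21 receptor, and lies on chromosome 7 from 125603429 to 125633570 (GRCm38, plus strand), 23955 bases downstream of Il4ra. In cMoPs it stood at 36.0 and 38.8 CPM on OP9-DLL1 and 34.3 and 28.3 CPM on OP9. Monocytes had 65.8 and 71.4 CPM on OP9-DLL1 and 13.4 and 17.1 CPM on OP9. The groups did not overlap: monocytes on OP9-DLL1 were highest, both cMoP groups lay between, and monocytes on OP9 were lowest. In bulk libraries such as these, fewer cells carrying a transcript and less of it per cell cannot be told apart. In monocytes the rise on OP9-DLL1 was 4.53-fold (log2 2.18 ± 0.17, SE, limma-trend adjusted p = 3e-04, over all 13374 genes tested). In cMoPs the difference was 0.26 ± 0.17 on the log2 scale (95% interval -0.11 to 0.64, limma-trend adjusted p = 0.7). The difference of the responses, cMoPs minus monocytes, was -1.92 ± 0.23 on the log2 scale and passed (limma-trend adjusted p = 0.03).

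The response in monocytes held whichever library was left out, with an adjusted p of at most 0.0095 by limma-trend. The difference of the responses stayed between -2.09 and -1.74 on the log2 scale with 1 library left out. Its call ended without any 1 of the 4 cMoP libraries or of the 2 monocyte libraries on OP9-DLL1 (limma-trend adjusted p at most 0.29), and under each of these 6 omissions 0 of all genes passed. Without monocyte replicate 1 or 2 on OP9 the call held, and 29 and 1124 of all genes passed. Of all genes tested, 7 (0.0523%) passed in the difference of the responses with all libraries in (0.0299% with the higher response in cMoPs and 0.0224% with the lower). Il21r was the 1 member among them, and voom called 1 member as well, where 6 of all genes passed.

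The same gene changed its order between the cell types with the stroma. On OP9-DLL1 it was lower in cMoPs than in monocytes (log2 -0.87 ± 0.17, limma-trend adjusted p = 0.0016), and on OP9 it was higher in cMoPs (log2 1.04 ± 0.17, limma-trend adjusted p = 0.00064). Its neighbour Il4ra, transcribed on the same strand, had log2 differences of 0.26 ± 0.11 in monocytes and -0.02 ± 0.11 in cMoPs between OP9-DLL1 and OP9, and neither passed. Il4ra shares 571 exonic bases with the antisense gene Gm44876, whose reads an unstranded library cannot separate from its own.

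**Figure D1:**
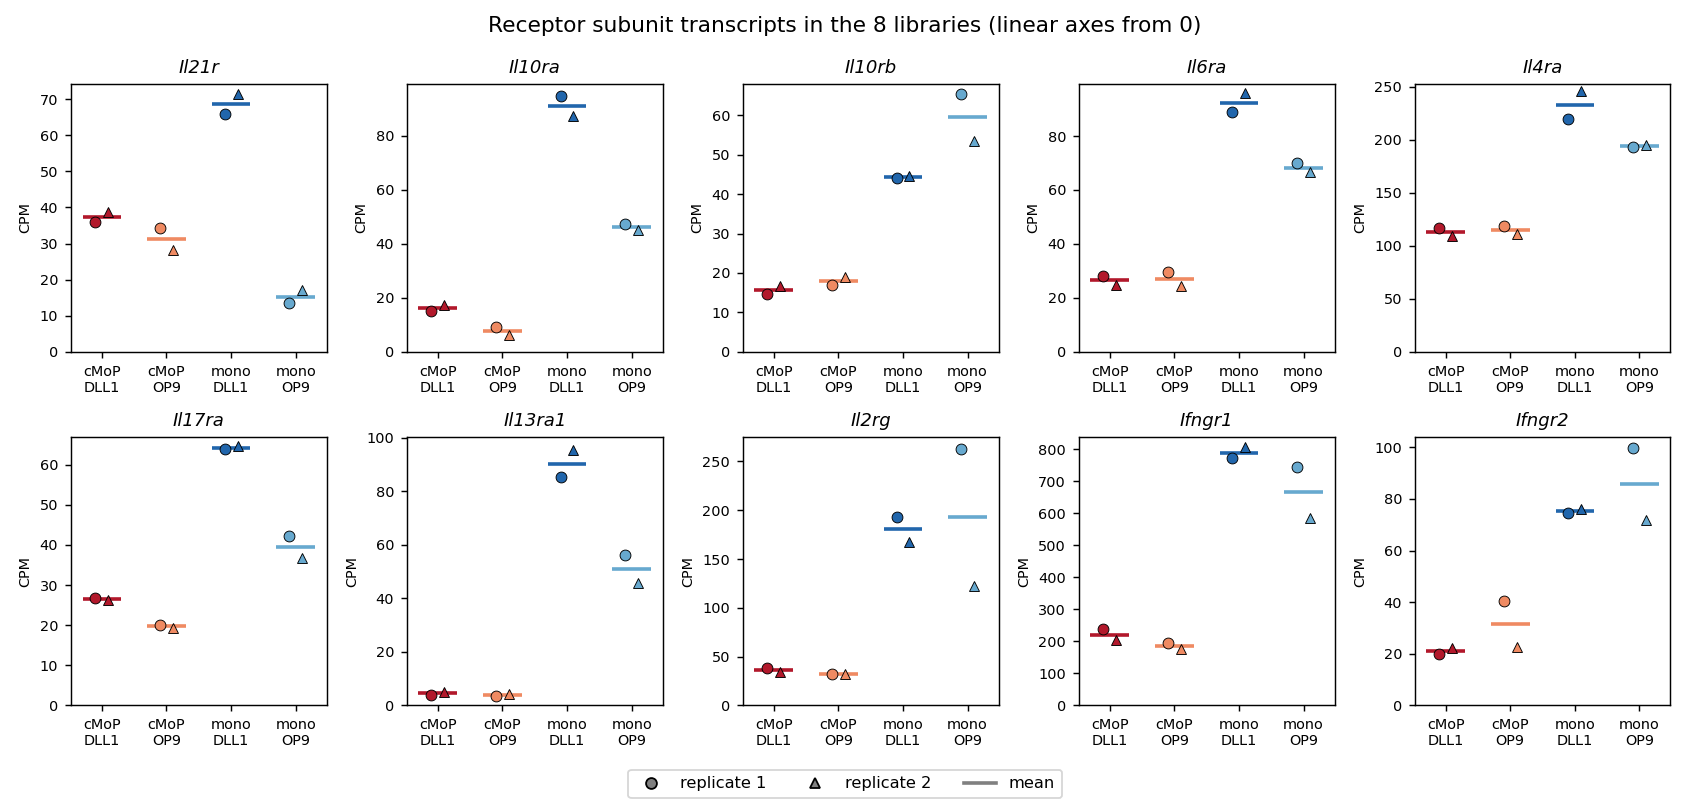
Level of each receptor transcript in CPM (linear vertical axes from 0) in cMoPs and monocytes on OP9-DLL1 (DLL1) and OP9, with points for the 2 replicates of a group and a bar for their mean. Il21r is highest in monocytes on OP9-DLL1 (65.8 and 71.4 CPM) and lowest in monocytes on OP9 (13.4 and 17.1 CPM), while Il2rg in monocytes on OP9 is split between 263 and 122 CPM.

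Bases before the annotated start are shown for Il21r and Il13ra1, which rose in monocytes, and for Il6ra, where the core motif of the Notch-dependent factor RBPJ was found, so that their letters can be compared. They are the 250 bases upstream in RefSeq on GRCm38.p6, written 5′ to 3′ in the direction of transcription, with motif matches in capitals. Of the 10 genes 7 had an entry in that table, and Il10ra, Il10rb and Il17ra did not.
Il21r (chr7:125603179-125603428, plus strand): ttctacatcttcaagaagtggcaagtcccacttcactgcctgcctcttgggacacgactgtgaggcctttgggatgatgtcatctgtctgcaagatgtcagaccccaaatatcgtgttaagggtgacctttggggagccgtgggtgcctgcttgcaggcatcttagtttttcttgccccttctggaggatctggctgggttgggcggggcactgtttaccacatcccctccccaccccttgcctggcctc
Il13ra1 (chrX:36111858-36112107, plus strand): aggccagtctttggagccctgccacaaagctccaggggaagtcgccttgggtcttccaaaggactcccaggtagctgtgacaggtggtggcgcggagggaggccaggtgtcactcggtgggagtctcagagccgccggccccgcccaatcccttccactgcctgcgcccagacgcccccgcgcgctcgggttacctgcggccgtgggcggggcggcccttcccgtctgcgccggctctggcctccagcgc
Il6ra (chr3:89913197-89913446, minus strand): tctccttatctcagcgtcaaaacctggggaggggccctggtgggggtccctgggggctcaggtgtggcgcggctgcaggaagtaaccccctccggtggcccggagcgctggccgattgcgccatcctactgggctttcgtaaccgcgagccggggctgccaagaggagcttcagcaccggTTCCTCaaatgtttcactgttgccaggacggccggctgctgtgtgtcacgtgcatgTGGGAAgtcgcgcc

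The RBPJ core TGGGAA, read on both strands, was found in 2 of the 7 windows, 14 bases before the start of Il6ra and 241 bases before that of Il2rg. It occurs in 21.6% of all 32851 such windows. The capitals in Il6ra nearest its start mark that match, and the others mark GAGGAA, a core bound by PU.1-type ETS factors, on the opposite strand 70 bases before the start. GAGGAA was found in 1 of the 7 windows and in 23.3% of all windows. The STAT site TTCNNNGAA was found in 0 of the 7 and in 7.02% of all. Neither Il6ra nor Il2rg passed between OP9-DLL1 and OP9. These matches describe letters in this window and no binding was measured.

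Il10ra was the 1 member that rose on OP9-DLL1 in both cell types. It encodes the ligand-binding chain of the IL-10 receptor, a receptor that restrains inflammatory activation of macrophages, and lies on chromosome 9 from 45253837 to 45269149 on the minus strand. In cMoPs it stood at 15.0 and 17.5 CPM on OP9-DLL1 and 9.06 and 6.29 CPM on OP9, and in monocytes at 94.8 and 87.3 CPM on OP9-DLL1 and 47.2 and 44.9 CPM on OP9. The OP9-DLL1 libraries lay above the OP9 libraries in each cell type. The fold was 2.15 in cMoPs (log2 1.10 ± 0.19, limma-trend adjusted p = 0.033) and 1.98 in monocytes (log2 0.98 ± 0.19, limma-trend adjusted p = 0.018). The responses differed by 0.12 ± 0.27 on the log2 scale, with a 95% interval of -0.48 to 0.72 (limma-trend adjusted p = 0.92).

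In cMoPs the Il10ra call ended by voom on recovered reads (adjusted p = 0.063) and without either cMoP library on OP9-DLL1, cMoP replicate 2 on OP9 or either monocyte library on OP9-DLL1 (limma-trend adjusted p at most 0.23). In monocytes it ended without either library on OP9-DLL1 (limma-trend adjusted p at most 0.11). In the authors' deposited table Il10ra passed in cMoPs (log2 1.09, adjusted p = 0.015) and in monocytes (log2 0.98, adjusted p = 0.011).

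Its partner Il10rb, the accessory chain that the IL-10 receptor shares with those for IL-22 and type III interferons, did not pass in either cell type. It lies on chromosome 16 from 91406164 to 91425834. In cMoPs it stood at 14.6 and 16.7 CPM on OP9-DLL1 and 16.8 and 18.9 CPM on OP9, and in monocytes at 44.2 and 44.5 CPM on OP9-DLL1 and 65.4 and 53.4 CPM on OP9. In monocytes both OP9-DLL1 libraries lay below both OP9 libraries (log2 -0.42 ± 0.16, limma-trend adjusted p = 0.16), and in cMoPs the OP9-DLL1 libraries were also the lower (log2 -0.19 ± 0.16, adjusted p = 0.79). The responses differed by 0.23 ± 0.22 on the log2 scale, cMoPs minus monocytes (limma-trend adjusted p = 0.78). Without monocyte replicate 2 on OP9 the monocyte difference passed (log2 -0.56, limma-trend adjusted p = 0.038). Il10rb lies 575 bases from Ifnar2 and shares 569 exonic bases with the same-strand gene Gm21970, so its values are uncertain to that extent.

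Il17ra and Il13ra1 also rose in monocytes on OP9-DLL1. Il17ra, the chain common to IL-17 receptors (chromosome 6, 120463247 to 120487559), stood in cMoPs at 26.9 and 26.3 CPM on OP9-DLL1 and 20.0 and 19.4 CPM on OP9. Monocytes held 63.8 and 64.6 CPM on OP9-DLL1 and 42.3 and 36.9 CPM on OP9. The OP9-DLL1 libraries were above the OP9 libraries in each cell type. The difference passed in monocytes (1.63-fold, log2 0.70 ± 0.13, limma-trend adjusted p = 0.017) and not in cMoPs (log2 0.43 ± 0.13, 95% interval 0.13 to 0.73, adjusted p = 0.27), and the responses differed by -0.27 ± 0.19 on the log2 scale (adjusted p = 0.68). The monocyte call ended without either OP9-DLL1 library of monocytes (limma-trend adjusted p at most 0.13).

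Il13ra1 encodes the chain that joins IL-4R alpha in the receptor for both IL-13 and IL-4 (chromosome X, 36112110 to 36171259). In cMoPs it stood at 4.10 and 4.99 CPM on OP9-DLL1 and 3.44 and 4.26 CPM on OP9, and these groups overlapped. In monocytes it stood at 85.2 and 95.6 CPM on OP9-DLL1 and 56.1 and 45.9 CPM on OP9, with no overlap. The rise in monocytes was 1.78-fold (log2 0.83 ± 0.19, limma-trend adjusted p = 0.036), against 0.24 ± 0.19 on the log2 scale in cMoPs (adjusted p = 0.79). The responses differed by -0.59 ± 0.27 on the log2 scale, cMoPs minus monocytes (95% interval -1.20 to 0.02, limma-trend adjusted p = 0.53). The monocyte call of Il13ra1 was the least steady of the 4, and ended in 7 of 8 omissions of 1 library (limma-trend adjusted p at most 0.24), all but that of monocyte replicate 1 on OP9.

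Il6ra, Il4ra and Ifngr1 did not pass between OP9-DLL1 and OP9 in either cell type. Il6ra, the ligand-binding chain for IL-6 (chromosome 3, 89864059 to 89913196, minus strand), stood at 28.2 and 24.9 CPM in cMoPs on OP9-DLL1 and 29.8 and 24.5 CPM in cMoPs on OP9, which overlapped. The monocyte levels were 88.8 and 95.9 CPM on OP9-DLL1 and 69.9 and 66.7 CPM on OP9, which did not. That monocyte difference was 0.43 ± 0.14 on the log2 scale (95% interval 0.11 to 0.76, limma-trend adjusted p = 0.11), and that in cMoPs -0.03 ± 0.14 (adjusted p = 0.98). The responses differed by -0.46 ± 0.20, cMoPs minus monocytes (95% interval -0.92 to -0.001, limma-trend adjusted p = 0.51), the smallest p among the members after Il21r. Il6ra shares 242 exonic bases with the antisense gene Gm42809.

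Il4ra, the chain common to the IL-4 and IL-13 receptors (chromosome 7, 125552120 to 125579474), stood at 117 and 110.0 CPM in cMoPs on OP9-DLL1 and 118 and 111 CPM in cMoPs on OP9. Monocytes stood at 220.1 and 246 CPM on OP9-DLL1 and 193 and 196 CPM on OP9. The cMoP groups overlapped and the monocyte groups did not, and the 95% interval of the monocyte difference was 0.01 to 0.51 on the log2 scale (limma-trend adjusted p = 0.21). In cMoPs the interval was -0.27 to 0.24, and the responses differed by -0.28 ± 0.16, cMoPs minus monocytes (limma-trend adjusted p = 0.61).

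Il2rg was the least even member. The gene for the common gamma chain (chromosome X, 101264378 to 101268255, minus strand) stood in cMoPs at 38.7 and 34.0 CPM on OP9-DLL1 and 32.05 and 32.03 CPM on OP9. In monocytes it stood at 193 and 168 CPM on OP9-DLL1 and 263 and 122 CPM on OP9, so that the OP9-DLL1 libraries fell between those on OP9. The monocyte difference was 0.01 ± 0.29 on the log2 scale (95% interval -0.64 to 0.65, limma-trend adjusted p = 0.99). It became 0.56 ± 0.14 without monocyte replicate 1 on OP9 (limma-trend adjusted p = 0.038) and -0.55 ± 0.14 without replicate 2 (adjusted p = 0.022), so a single library set its direction. In cMoPs it was 0.18 ± 0.29 (limma-trend adjusted p = 0.92), and the responses differed by 0.17 ± 0.41 (adjusted p = 0.92), or by 0.73 without monocyte replicate 2 on OP9 (adjusted p = 0.036). Those replicates also differed in the proliferation genes Top2a (106 and 351 CPM in replicates 1 and 2) and Mki67 (72.9 and 166 CPM), and whether that plays a part was not tested. Il2rg shares 728 exonic bases with the same-strand gene Gm20489. T and NK cell markers, of cells that depend on the gamma chain (2 of 13 measured), summed to 179 to 322 CPM in cMoPs, nearly all of it Nkg7, and 1.27 to 2.23 CPM in monocytes, and the kinase gene Lck stood at 0.0924 to 1.72 CPM. The part of such cells was not tested.

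The interferon gamma receptor chains did not pass between OP9-DLL1 and OP9. Ifngr1, the ligand-binding chain (chromosome 10, 19591949 to 19610229), stood at 239 and 203 CPM in cMoPs on OP9-DLL1 and 196 and 177 CPM in cMoPs on OP9. The monocyte levels were 772 and 806 CPM on OP9-DLL1 and 744 and 587 CPM on OP9. The OP9-DLL1 libraries were above the OP9 libraries in both cell types, by 0.25 ± 0.14 on the log2 scale in cMoPs and 0.26 ± 0.14 in monocytes (limma-trend adjusted p = 0.66 and 0.33). The responses differed by -0.01 ± 0.20, cMoPs minus monocytes (limma-trend adjusted p = 0.99).

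Ifngr2, the second chain of that receptor (chromosome 16, 91547072 to 91565623), stood at 19.9 and 22.4 CPM in cMoPs on OP9-DLL1 and 40.3 and 22.8 CPM in cMoPs on OP9. In monocytes it stood at 74.6 and 76.0 CPM on OP9-DLL1 and 99.9 and 71.8 CPM on OP9. In each cell type replicate 1 on OP9 was the highest library. The differences were -0.52 ± 0.25 in cMoPs and -0.17 ± 0.25 in monocytes on the log2 scale (limma-trend adjusted p = 0.58 and 0.75), and the responses differed by -0.35 ± 0.36, cMoPs minus monocytes (adjusted p = 0.79).

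**Figure D2:**
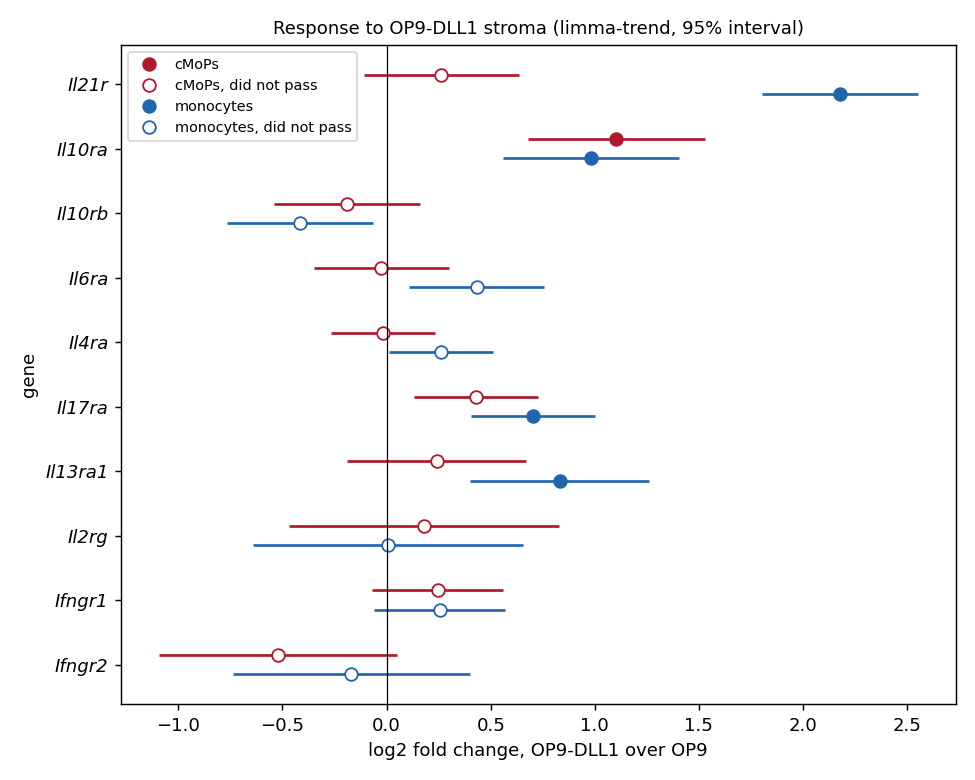
Fitted log2 fold change of each receptor transcript, OP9-DLL1 over OP9, in cMoPs and monocytes (horizontal axis), with 95% intervals from limma-trend as lines and filled points where the adjusted p was under 0.05. Il21r in monocytes stands at 2.18, and Il10ra is the 1 gene filled in both cell types, at 1.10 in cMoPs and 0.98 in monocytes.

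Across the 10 genes, 1 passed on OP9-DLL1 in cMoPs, higher, where 0.77% of all genes tested passed (0.464% higher and 0.307% lower). In monocytes 4 passed, all higher, where 6.39% of all genes passed (3.36% higher and 3.03% lower). That background rests on single libraries: the 855 genes behind it became 164 without monocyte replicate 2 on OP9-DLL1 (279 without replicate 1) and 2488 without monocyte replicate 2 on OP9, the lowest and highest counts over the 8 omissions being 164 and 2488. The members passing were 1, 1 and 5 in that order, and of the 5 without monocyte replicate 2 on OP9 3 were higher and 2 lower. In cMoPs the 103 genes behind the share became 31 to 308 with 1 library left out. The median log2 fold change of the 10 was 0.21 in cMoPs and 0.35 in monocytes, against 0.01 over all genes in each. No member fell by limma-trend, and an unadjusted p under 0.05 was reached by 0 lower members in cMoPs and 1 in monocytes, with 0 called lower by voom in both. By voom 0 members were higher in cMoPs and 4 in monocytes, where 64 and 988 of all genes passed (39 and 555 of them higher). By the values of the authors' deposited table, 1 of the 10 was higher in cMoPs and 4 in monocytes, 0 were lower, and 1.82% and 4.28% of its genes passed in cMoPs and monocytes.

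The cell types differed in every member on either stroma. On OP9-DLL1 all 10 were lower in cMoPs than in monocytes, where 57.4% of all genes tested passed and 29.2% were lower. On OP9 9 were lower and 1 was higher, where 56.5% passed, 27.7% lower and 28.8% higher. These comparisons with monocytes share their libraries with those between the stromas. The median of the 10 was -1.82 on OP9-DLL1 and -1.61 on OP9 on the log2 scale, against -0.01 and 0.01 over all genes. All 10 passed on each stroma with any 1 library left out, and centring the libraries on their medians moved the all-gene median on OP9-DLL1 by 0.11 and no member across the threshold.

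Il13ra1 differed most between the cell types, 20.0-fold lower in cMoPs than in monocytes on OP9-DLL1 (log2 -4.32 ± 0.19, limma-trend adjusted p = 3.8e-07) and 13.3-fold lower on OP9 (log2 -3.73 ± 0.19, limma-trend adjusted p = 1.1e-06). Il10ra followed, at -2.49 ± 0.19 on OP9-DLL1 and -2.61 ± 0.19 on OP9, and then Il2rg, at -2.31 ± 0.29 and -2.48 ± 0.29 on the log2 scale. Ifngr1 (-1.84 and -1.83), Ifngr2 (-1.83 and -1.48), Il6ra (-1.80 and -1.34) and Il10rb (-1.50 and -1.73) lay between. Il17ra (-1.27 and -1.0) and Il4ra (-1.04 and -0.76) differed least among the genes that were lower in cMoPs on both stromas. In each of these pairs the value on OP9-DLL1 stands before that on OP9. With all libraries the limma-trend adjusted p of these 9 genes was at most 0.00025 on OP9-DLL1 and at most 0.00099 on OP9.

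Markers of other cell types differed between cMoPs and monocytes as well. Neutrophil markers (8 of 9 measured) summed to 169 to 259 CPM in cMoPs and 1140 to 1980 CPM in monocytes. Of these Mmp8 differed most, at 6.71 to 15.8 CPM in cMoPs and 534 to 1520 CPM in monocytes. Camp, Ltf and Ngp overlapped between the cell types. Cxcr2 was highest in cMoPs on OP9-DLL1 (11.7 and 11.7 CPM), against 3.79 to 8.06 CPM in monocytes. Macrophage markers (9 of 10) summed to 105 to 135 CPM in cMoPs and 498 to 745 CPM in monocytes. Adgre1 differed most among them, at 18.3 to 22.5 CPM in cMoPs and 203 to 449 CPM in monocytes. On OP9-DLL1 Cd163 went the other way, at 2.17 and 1.51 CPM in cMoPs and 0.38 and 0.32 CPM in monocytes. Megakaryocyte and erythroid markers (3 of 9) summed to 0.839 to 4.02 CPM in cMoPs, and in monocytes to 22.2 and 13.6 CPM on OP9-DLL1 and 113 and 195 CPM on OP9, and the platelet gene Ppbp had 0 reads in the 4 cMoP libraries. Dendritic cell markers (3 of 8) summed to 0.763 to 1.76 CPM in cMoPs, and in monocytes to 8.71 and 32.9 CPM on OP9-DLL1 and 5.67 and 16.7 CPM on OP9. Mast cell and basophil markers (3 of 6) summed to 57.4 and 48.1 CPM in cMoPs on OP9-DLL1 and 40.5 and 40.2 CPM in cMoPs on OP9, and in monocytes to 46.1 and 47.9 CPM on OP9-DLL1 and 15.6 and 18.9 CPM on OP9. In monocytes the mast cell and basophil sum was thus higher on OP9-DLL1 and the megakaryocyte and erythroid sum lower. The former was mostly Hdc, at 45.7 and 41.0 CPM on OP9-DLL1 and 13.7 and 10.9 CPM on OP9. Gata2 went the other way, at 0.0308 and 0.223 CPM on OP9-DLL1 and 0.566 and 0.549 CPM on OP9. Mcpt8 stood at 0.359 and 6.61 CPM on OP9-DLL1 and 1.37 and 7.45 CPM on OP9. B cell markers (3 of 8) summed to 248 to 268 CPM in cMoPs and 78.2 to 114 CPM in monocytes. The part of these cells in the receptor differences, between cell types or stromas, was not tested.

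**Figure D3:**
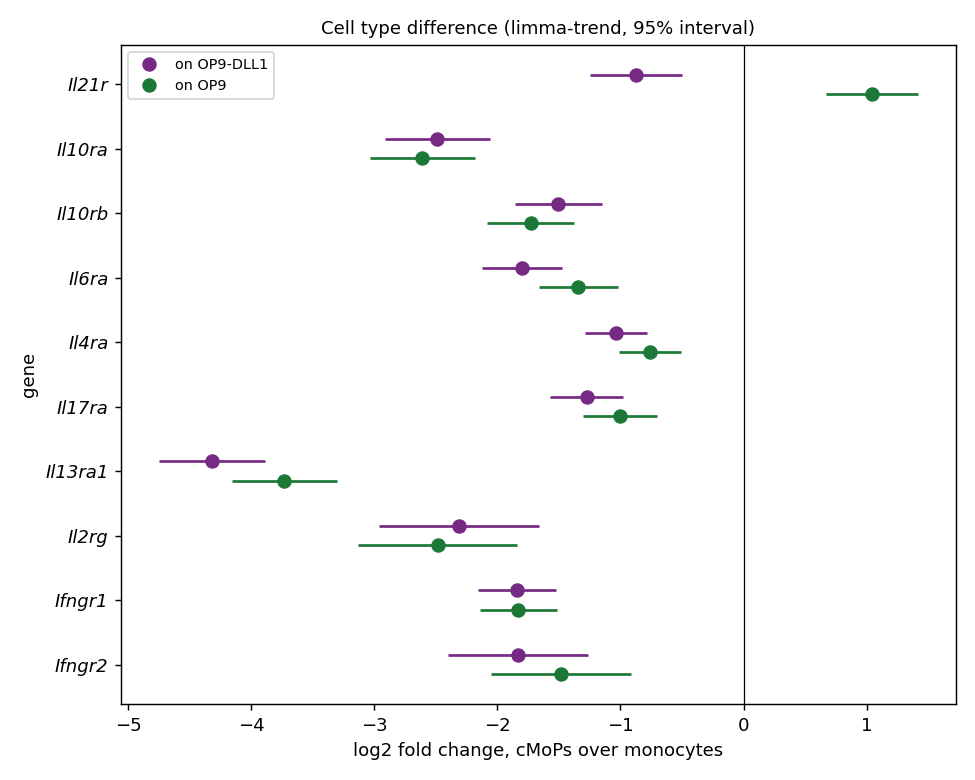
Fitted log2 fold change of each receptor transcript, cMoPs over monocytes, on OP9-DLL1 and on OP9 (horizontal axis), with 95% intervals from limma-trend as lines. Every gene lies left of 0 on both stromas except Il21r on OP9, which stands at 1.04.

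Per kilobase of annotated exon (CPM per kb, on which genes can be set beside each other), Ifngr1 was the most abundant of the 10 in every group, with means of 77.7 in cMoPs on OP9-DLL1, 65.4 in cMoPs on OP9, 277.2 in monocytes on OP9-DLL1 and 233.8 in monocytes on OP9. In cMoPs Il4ra came next (18.9 on OP9-DLL1 and 19.1 CPM per kb on OP9) and then Il2rg (15.2 and 13.4 CPM per kb). In monocytes Il2rg came next (75.6 on OP9-DLL1 and 80.7 CPM per kb on OP9) and then Il4ra (38.9 and 32.4 CPM per kb). The libraries of these neighbours in the order did not overlap. Exonic bases that Il2rg (728) and Il4ra (571) share with other genes were not allowed for, so their order in cMoPs is not settled. Il13ra1 was lowest in cMoPs, at 1.22 on OP9-DLL1 and 1.04 CPM per kb on OP9. In monocytes Il17ra was lowest, at 7.41 on OP9-DLL1 and 4.57 CPM per kb on OP9, where its libraries overlapped those of Il21r. Counted from the highest, Il21r held place 4 of 10 in both cMoP groups, place 6 in monocytes on OP9-DLL1 and place 9 in monocytes on OP9. Other neighbours with overlapping libraries were Il10ra and Il10rb, and Il6ra and Il17ra, in cMoPs on OP9-DLL1. In cMoPs on OP9 they were Il21r and Ifngr2, and Il17ra and Il10ra. In monocytes on OP9-DLL1 they were Il10ra and Il13ra1, and Il21r and Ifngr2. In monocytes on OP9 they were Il10rb, Il13ra1 and Il10ra.

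Ratios of partner chains within a library, on the same per-length scale, describe which chain of a pair was the scarcer transcript. Il10ra over Il10rb was 1.12 and 1.14 in cMoPs on OP9-DLL1, 0.586 and 0.362 in cMoPs on OP9, 2.34 and 2.14 in monocytes on OP9-DLL1 and 0.785 and 0.916 in monocytes on OP9. Il10ra was on this scale the more abundant of the pair in the 4 OP9-DLL1 libraries and the less abundant in the 4 on OP9. Il10rb shares 569 exonic bases with the same-strand gene Gm21970, which the lengths do not allow for. With ratios of 1.12 and 1.14, which chain was scarcer in cMoPs on OP9-DLL1 is therefore not settled. Il21r over Il2rg was 0.668 and 0.819 in cMoPs on OP9-DLL1, 0.768 and 0.635 in cMoPs on OP9, 0.244 and 0.306 in monocytes on OP9-DLL1 and 0.0366 and 0.100 in monocytes on OP9. Il2rg exceeded Il21r in all 8 libraries. These ratios were not tested.

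Il4ra over Il13ra1 was 17.7 and 13.6 in cMoPs on OP9-DLL1 and 21.3 and 16.1 in cMoPs on OP9, and 1.60 and 1.59 in monocytes on OP9-DLL1 and 2.13 and 2.64 in monocytes on OP9. Il4ra over Il2rg was above 1 in the 4 cMoP libraries (1.20 and 1.29 on OP9-DLL1, 1.47 and 1.38 on OP9) and below it in the 4 of monocytes (0.453 and 0.585 on OP9-DLL1, 0.291 and 0.638 on OP9). On this scale Il2rg was the scarcer of its pair with Il4ra in cMoPs and the more abundant in monocytes. Il2rg shares 728 of its 2387 exonic bases with the same-strand gene Gm20489, and Il4ra shares 571 with Gm44876. The lengths do not allow for this, so which of the 2 was scarcer in cMoPs is not settled. Il13ra1 was the scarcer of its pair with Il4ra in all 8 libraries. Ifngr1 exceeded Ifngr2 6.43-fold to 15.9-fold over the 8 libraries.

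**Figure D4:**
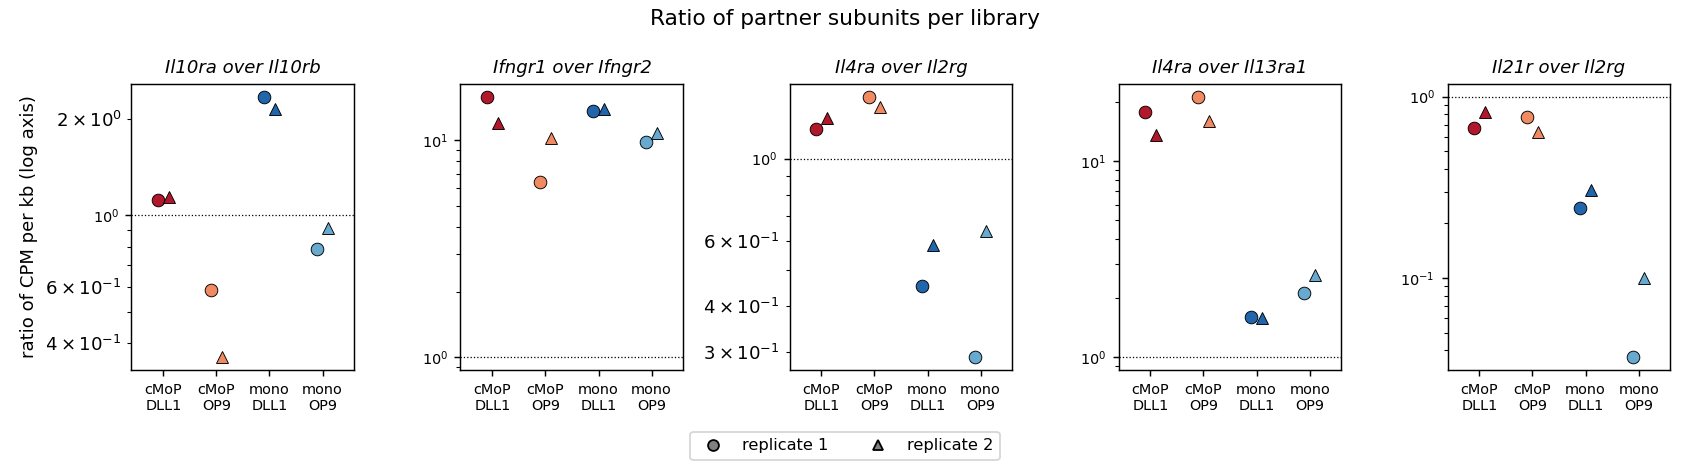
Ratio of partner receptor chains in each library, from CPM per kb of exon (vertical axes are logarithmic and differ between panels, and the dotted line marks equal levels), with points for the 2 replicates of a group. Il10ra over Il10rb lies above 1 in the 4 OP9-DLL1 libraries and below 1 in the 4 OP9 libraries. Exonic bases shared with overlapping genes were not allowed for, so ratios near 1 do not settle which chain was scarcer.

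Other cytokine receptor genes also rose on OP9-DLL1. Of 25 tested of 47 listed, 1 rose in cMoPs and 5 rose in monocytes (0.464% and 3.36% of all genes were higher in cMoPs and monocytes, the shares to read this and the next lists against, with 0.307% and 3.03% lower), and 0 fell in either (limma-trend, where an unadjusted p under 0.05 was reached by 1 lower gene in cMoPs and 0 in monocytes, and voom called 0 lower). The list median was 0.26 in cMoPs and 0.04 in monocytes on the log2 scale. Il1r2, a decoy receptor for IL-1, rose in both, by 2.91 ± 0.26 in cMoPs and 2.07 ± 0.26 in monocytes. It stood at 34.1 and 23.9 CPM in cMoPs on OP9-DLL1 and 4.90 and 2.95 CPM in cMoPs on OP9, while its monocyte values were 75.0 and 96.3 CPM on OP9-DLL1 and 19.8 and 20.7 CPM on OP9. In monocytes 4 others rose, among them Csf1r, the M-CSF receptor (0.75 ± 0.12), and Csf3r, the G-CSF receptor (1.0 ± 0.16). The remaining ones were Il31ra, a chain for IL-31 (3.88 ± 0.70, from only 0.450 and 0.177 CPM on OP9 to 4.10 and 4.22 CPM on OP9-DLL1), and Il15ra, which presents IL-15 (0.89 ± 0.17). Il15ra, the last of these by adjusted p, was named after its value was seen. Those 4 calls ended without monocyte replicate 2 on OP9-DLL1 (limma-trend adjusted p at most 0.065 for Csf1r, 0.079 for Csf3r, 0.13 for Il31ra and 0.16 for Il15ra), and that of Il1r2 held in monocytes with any 1 library left out (limma-trend adjusted p at most 0.046).

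Among genes listed for the gamma chain and related receptors (5 tested of 9 listed, Il21r, Il4ra and Crlf2 among them), 3 rose in monocytes on OP9-DLL1. They were Il21r, Il15ra and Jak3, the kinase bound by the gamma chain. Il15ra is also counted in the list before and Jak3 in the next, so these are not further genes. Jak3 in cMoPs stood at 8.91 and 11.0 CPM on OP9-DLL1 and 7.35 and 7.55 CPM on OP9, and in monocytes at 5.92 and 8.47 CPM on OP9-DLL1 and 2.99 and 3.21 CPM on OP9, with no overlap in monocytes. Its monocyte difference was 1.19 ± 0.24 on the log2 scale (limma-trend adjusted p = 0.021, and at most 0.17 with 1 library left out). In cMoPs 0 of the 5 passed by limma-trend or voom, and 0 had an unadjusted p under 0.05. The list medians were 0.14 in cMoPs and 0.89 in monocytes.

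Of 20 JAK, STAT and adaptor genes, 3 rose in monocytes on OP9-DLL1, all of them receptor-bound kinases, and 0 passed in cMoPs (limma-trend, where an unadjusted p under 0.05 was reached by 1 higher and 0 lower genes, and voom called 0). They were Jak1 (0.84 ± 0.16 on the log2 scale, limma-trend adjusted p = 0.018), Jak3 and Tyk2 (0.55 ± 0.14, limma-trend adjusted p = 0.049). Voom called 5 of the 20 higher in monocytes, while 0 passed there without the mean-variance trend or with only the libraries compared. Jak1 in monocytes stood at 155 and 209 CPM on OP9-DLL1 and 95.1 and 107 CPM on OP9. Its call and that of Tyk2 ended without monocyte replicate 2 on OP9-DLL1 (limma-trend adjusted p at most 0.15 and 0.31). In cMoPs the smallest p-values were those of Tyk2 (0.57 ± 0.14, adjusted p = 0.14) and Jak2 (0.41 ± 0.19, adjusted p = 0.55). The list medians were 0.07 in cMoPs and 0.32 in monocytes.

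Of 15 feedback inhibitors and early STAT targets, 0 passed in either cell type by limma-trend or voom, and an unadjusted p under 0.05 was reached by 1 higher and 2 lower genes in cMoPs and by 1 and 1 in monocytes. In cMoPs those with the smallest p were Socs1, which blocks JAK activity (-1.99 ± 0.50, adjusted p = 0.16), and Socs2 (0.71 ± 0.23, adjusted p = 0.32). In monocytes they were Cish (0.41 ± 0.15) and Cebpb (-0.57 ± 0.21), each with a limma-trend adjusted p of 0.15. Levels of Socs1 in cMoPs were low, at 0.184 and 0.143 CPM on OP9-DLL1 and 0.748 and 0.557 CPM on OP9. Of 23 listed ligands of these and related cytokine receptors 5 were tested and 0 passed by limma-trend or voom. An unadjusted p under 0.05 was reached by 1 higher and 0 lower genes in each cell type. Il27, a subunit of IL-27, was at 1.33 ± 0.35 in cMoPs and 0.84 ± 0.35 in monocytes on the log2 scale (limma-trend adjusted p = 0.18 and 0.2). The other 18 ligand genes, Il21, Il10, Il4, Il13, Il17a and Ifng among them, had no deposited values and could not be tested.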

How the data were processed

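The series measured RNA by sequencing in 8 libraries, and the labels put 2 in each group. Per the labels' protocols, cDNA came from a SMARTer Ultra Low kit and was read in pairs of 150 bases. Per the submitters' processing notes the build was mm10 and the tools included Salmon 1.5.2, STAR 2.7.9a, limma, edgeR, featureCounts 2.0.3, bcl2fastq and Subread, with settings that the sources used here do not give. The deposited table holds log2 CPM per gene and library, normalized by the authors to an effective library size, and, for 4 comparisons, log2 fold changes with p-values that the authors computed. The authors' signed linear fold changes, deposited as a score, were not used. Of its 13430 entries, 42 that repeat a gene identifier were dropped.

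With the lowest value of a column set to 0 reads, 100.0% of values came out as whole reads (tolerance 0.001). These reads gave the depth and, by voom, an alternative test. The reported test was limma-trend (limma 3.58.1, R 4.3.3) fitted to those deposited log2 values with a mean for each of the 4 groups (4 residual degrees of freedom), for genes reaching 1 CPM in 2 or more libraries (13374 tested, 14 left out). All 10 receptor genes passed that filter. Tests were two-sided with Benjamini-Hochberg adjustment over all genes and a threshold of 0.05, and intervals are 95%. The alternatives were no filter, a filter at 5 CPM, no trend, median centring, log2(CPM + 1), voom, the compared libraries alone, a replicate block and leaving out each library.

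Positions, overlaps and exon lengths are from GENCODE M21 on GRCm38, the assembly of mm10. The kit does not mark strand. The result of 1 pathway list is not reported here. Figures were drawn with matplotlib 3.10.9. All 10 members were named. Of each pathway list, passing members were named up to 4 by adjusted p, or up to 2 as values where none passed. The 3 genes most like a member were taken for the 2 members of widest range. The members, lists and motifs were chosen with earlier results of these data known, so nothing they share with those results is independent support.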

Additional observations from a re-analysis of the deposited data

Results flagged for a closer look

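The response of Il21r to OP9-DLL1 differed between the cell types by -1.92 on the log2 scale, cMoPs minus monocytes (SE 0.23), in a test of the difference itself (limma-trend adjusted p = 0.03, 0.023 by voom). The cMoP libraries stood at 36.0 and 38.8 CPM on OP9-DLL1 and 34.3 and 28.3 CPM on OP9, and the monocyte libraries at 65.8 and 71.4 CPM on OP9-DLL1 and 13.4 and 17.1 CPM on OP9. The call ended in 6 of 8 omissions of 1 library and held without either monocyte library on OP9.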

How the results depend on the processing

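The cell type comparisons kept all 10 calls under every alternative run. In monocytes on OP9-DLL1 the count of 4 became 1 without the mean-variance trend and 2 with only the libraries compared, and ranged from 1 to 5 with 1 library left out. In cMoPs the count of 1 became 0 without the trend and by voom, and ranged from 0 to 1. For the difference of responses the count of 1 became 0 without the trend and ranged from 0 to 2. Over all genes, the 855 passing in monocytes became 248 without the trend and 306 with only the libraries compared. In cMoPs the 103 became 37 without the trend and 64 by voom, and for the difference the 7 became 1 without the trend. The cause of these changes was not tested. With a replicate block the counts were 1 in cMoPs, 4 in monocytes, 1 for the difference and 10 on each stroma, and none changed. Deviations of same-numbered libraries correlated at 0.023 to 0.089. The labels do not say whether the numbers mark a shared batch or animal, and such weak correlations cannot settle it.

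Signs turned only for differences that had not passed. With median centring the Ifngr1 difference of responses became 0.07 and the Il2rg monocyte difference -0.074. With 1 library left out the ranges were -0.18 to 0.16 for the Ifngr1 difference of responses, -0.76 to 0.057 for that of Ifngr2, -0.14 to 0.39 for that of Il10ra and -0.38 to 0.73 for that of Il2rg. In monocytes they were -0.41 to 0.069 for Ifngr2 and -0.55 to 0.56 for Il2rg, and in cMoPs -0.063 to 0.032 for Il4ra and -0.17 to 0.12 for Il6ra. Median centring also ended the Il13ra1 call in monocytes (adjusted p = 0.056), and moved the share of genes higher among those passing in monocytes to 39.8% of 906 genes, against 52.6% of 855. In all, 740 single-gene values kept direction and side of the threshold, while 31 lost a call and 3 gained 1 with direction kept. The other 16 changed sign and were counted apart, whichever side of the threshold they fell on. The Il2rg monocyte difference without replicate 2 on OP9 (-0.55) was among those 16. With 2 libraries a group, only differences that are large against the spread can pass.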

Other observations

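Some genes downstream of these receptors were also measured. Of 17 tested IL-4, IL-13 and STAT6 targets (22 listed), 1 rose and 0 fell in cMoPs (limma-trend, where 3 lower genes had an unadjusted p under 0.05 and voom called 0 in either direction). In monocytes 2 rose and 1 fell (1 and 3 by voom), where 3.36% of all genes were higher and 3.03% lower, against 0.464% and 0.307% in cMoPs. In cMoPs the chemokine Ccl24 stood at 9.09 and 5.88 CPM on OP9-DLL1 and 2.59 and 0.958 CPM on OP9 (log2 2.21 ± 0.41, limma-trend adjusted p = 0.048, and 0.075 by voom). In monocytes the transglutaminase Tgm2 (2.50 ± 0.36) and the lectin Mgl2 (2.79 ± 0.53) rose and arginase Arg1 fell (-2.91 ± 0.71), and each call ended without monocyte replicate 2 on OP9-DLL1, that of Mgl2 by voom as well (adjusted p = 0.14). Mgl2 in monocytes stood at 3.13 and 2.82 CPM on OP9-DLL1 and only 0.219 and 0.846 CPM on OP9. The list medians were -0.08 in cMoPs and 0.26 in monocytes. Of 15 tested IL-10, IL-6 and STAT3 targets (17 listed), 0 passed in cMoPs (limma-trend and voom, where 1 higher and 3 lower genes had an unadjusted limma-trend p under 0.05), with Il1rn at 0.86 ± 0.21 and Bcl3 at -0.45 ± 0.18. In monocytes Il21r itself and Il1rn, the IL-1 receptor antagonist (1.47 ± 0.21), rose and the scavenger receptor Cd163 fell (-2.73 ± 0.46, with the call ending without the same library, adjusted p at most 0.075). The medians were -0.12 in cMoPs and 0.07 in monocytes.

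The 2 members whose group means spanned the widest range were Il13ra1 (4.56 on the log2 scale) and Il10ra (3.59). Over the 8 libraries the genes whose log2 CPM ran most like Il13ra1 were Cd74 (Pearson r 0.998), Ctss (0.998) and Fam174a (0.997). Cd74, the invariant chain of class II molecules, averaged 40.0 CPM in cMoPs on OP9-DLL1, 27.4 CPM in cMoPs on OP9, 3780 CPM in monocytes on OP9-DLL1 and 1690 CPM in monocytes on OP9. Those most like Il10ra were Gpr18 (0.996), Natd1 (0.995) and Rdm1 (0.995). Gpr18 averaged 1.17 CPM in cMoPs on OP9-DLL1, 0.244 CPM in cMoPs on OP9, 37.6 CPM in monocytes on OP9-DLL1 and 8.48 CPM in monocytes on OP9. The points share libraries and group means, so these values describe 4 groups rather than 8 independent points.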
